A study of Mus musculus with 5 samples.

Results

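The genes described here are the 3 D-type cyclins Ccnd1, Ccnd2 and Ccnd3, their partner kinases Cdk4 and Cdk6, and the CDK inhibitors Cdkn1a, Cdkn1b, Cdkn1c, Cdkn2a and Cdkn2b, which makes 10 of 21883 protein-coding mouse genes. They were chosen by name, and every deposited peak that overlapped the gene body or the 50 kb on either side of it was counted, a stretch called the window below. The windows held 17 of 7458 TLX peaks in neural stem cells (NSC) and 2 of 1436 in brain tumour stem cells (BTSC). They also held 51 of 31266 peaks of H3K27ac, the acetylation of histone H3 that marks active promoters and enhancers, in NSC and 49 of 31597 in BTSC. Both cultures were of mouse origin. For TLX, an orphan nuclear receptor of neural stem cells, either culture carried retroviral TLX-3xTY1 and an antibody against the TY1 tag was used, so the protein mapped is the tagged, added one. For H3K27ac the cells of either culture were not transduced. A control library without antibody, from cells with the empty vector MSCV-neo, belongs to the series and was not used here. Each group is 1 library, so no value has a replicate error and no test was made. The sources used here give neither the tumour model nor the number of lines, nor whether animals were pooled.

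D cyclins are made in response to growth factors and bind the kinases CDK4 and CDK6. The active pair phosphorylates the retinoblastoma protein, which releases E2F factors and lets the cell pass from G1 into DNA replication. Inhibitors of the CIP/KIP family (p21, p27 and p57, from Cdkn1a, Cdkn1b and Cdkn1c) bind cyclin and kinase complexes, while those of the INK4 family (p16 from Cdkn2a and p15 from Cdkn2b) bind CDK4 and CDK6 directly. Cdkn2a has a separate upstream promoter for p19Arf, which frees p53 from Mdm2. In neural stem cells these genes set the balance of cycling and quiescence, and TLX has been reported to repress Cdkn1a.

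Of the 10 genes, 7 have RefSeq promoter sequences (build GRCm38.p6, the assembly of mm10), with 10 start sites in all. Each runs from 250 bp before to 50 bp after a start. Shown are 4 of them, all read 5′ to 3′ on the strand of the gene. The Cdkn1b promoter is shown because, of these 10, it was the one that lay under a TLX peak. For Ccnd1, Ccnd2 and Cdkn1c no promoter was at hand to look at. Both Cdkn2a promoters are shown because H3K27ac separated them, and that of Cdk4 because it held the TLX half-site letters. Capitals mark matches to AAGTCA (the half-site bound by TLX), CACGTG (E-box) and GGGCGG (GC box) on either strand, and adjoining matches can overlap.
Cdkn1b, chr6:134920151-134920450, plus strand: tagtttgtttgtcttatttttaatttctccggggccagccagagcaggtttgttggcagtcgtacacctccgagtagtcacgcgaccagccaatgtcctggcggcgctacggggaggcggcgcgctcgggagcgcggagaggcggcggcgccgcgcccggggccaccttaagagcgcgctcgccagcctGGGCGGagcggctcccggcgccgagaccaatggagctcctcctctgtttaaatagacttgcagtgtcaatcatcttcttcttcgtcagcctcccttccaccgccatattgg
Cdkn2a upstream start, chr4:89294570-89294869, minus strand: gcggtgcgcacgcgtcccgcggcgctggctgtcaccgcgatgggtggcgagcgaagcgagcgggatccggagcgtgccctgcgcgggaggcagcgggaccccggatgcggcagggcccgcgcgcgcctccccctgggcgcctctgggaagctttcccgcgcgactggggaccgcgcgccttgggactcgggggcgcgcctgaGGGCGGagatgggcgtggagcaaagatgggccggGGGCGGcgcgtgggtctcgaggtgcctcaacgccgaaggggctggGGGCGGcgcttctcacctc
Cdkn2a downstream start, chr4:89282143-89282442, minus strand: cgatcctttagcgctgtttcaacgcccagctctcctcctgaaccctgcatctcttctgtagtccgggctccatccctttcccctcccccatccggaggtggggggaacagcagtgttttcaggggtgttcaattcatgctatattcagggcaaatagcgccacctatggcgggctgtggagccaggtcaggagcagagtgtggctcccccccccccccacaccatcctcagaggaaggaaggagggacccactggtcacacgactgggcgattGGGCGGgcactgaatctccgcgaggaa
Cdk4, chr10:127063285-127063584, plus strand: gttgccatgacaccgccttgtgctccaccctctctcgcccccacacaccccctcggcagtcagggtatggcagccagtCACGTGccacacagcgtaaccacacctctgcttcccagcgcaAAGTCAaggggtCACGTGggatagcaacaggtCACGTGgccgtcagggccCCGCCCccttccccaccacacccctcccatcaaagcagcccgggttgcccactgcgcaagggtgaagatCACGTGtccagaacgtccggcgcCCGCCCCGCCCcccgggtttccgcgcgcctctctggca

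AAGTCA was found in 1 of the 10 member promoters, at base 121 of the Cdk4 promoter, against 15.1% of all 32851 RefSeq promoters. The TLX peak nearest to the Cdk4 start was 83388 bp away in NSC and 610461 bp away in BTSC. Letters of the half-site and a called TLX peak thus did not coincide at these promoters. CACGTG was in 2 of 10, against 7.15% of all. It was present once in Cdk6 and 4 times in Cdk4, the first at base 79, and 8 of all promoters (0.0244%) held it at least 4 times. This count was made after the Cdk4 sequence had been seen. GGGCGG was in 8 of 10, against 35.7%, and TGACTCA (AP-1) in 0 of 10, against 5.20%. The 10 promoters come from 7 genes. Their GC content ran from 54.7 to 77.0%, above the median of 52.7% over all promoters. The part of base content in these counts was not tested. Where the letters were absent, that says only that this window lacks them.

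Facts of the lists bear on several values below. Depth is unknown because no read numbers were at hand, and a missing peak means that none was called. The fold printed with a peak is the authors' own value and ranks it within its list; folds of both cultures are set side by side without reading a change from them. Chromosome 6, which carries Ccnd2 and Cdkn1b, stood apart. It held 769 TLX peaks in NSC and 75 in BTSC, a ratio of 10.3 (95% interval 8.08 to 13.2) against 5.19 (4.91 to 5.50) over all chromosomes, and its H3K27ac-covered length was 4.72 Mb in NSC and 3.73 Mb in BTSC. Over all genes the median log2 of H3K27ac-covered bp in BTSC over NSC was 0.099, and for genes on chromosome 6 it was -0.25. Chromosome 1, which carries no member, went the other way with a median of 0.58. At least 1.5-fold more covered bp in BTSC was found for 49.2% of its genes. It also held 297 of the 1436 BTSC TLX peaks, so values over all genes or whole lists include this chromosome. Of 10 neural stem cell markers, 8 had H3K27ac at a start or end in NSC and 8 in BTSC, among them Sox2, Nes, Vim and Slc1a3. None of 6 microglia, 5 endothelial or 5 fibroblast markers had it in either list. Neuron markers had it at 3 of 5 in NSC (Dcx, Syt1 and Tubb3) and 1 of 5 in BTSC. The part of such cells in the values below was not tested.

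TLX peaks in the windows were found mainly in NSC and lay in acetylated chromatin. In NSC, 6 of the 10 genes had at least 1, against 42.1% of all protein-coding genes. In BTSC, 2 of the 10 had 1, against 10.2%. Over 10 genes neither count sets these genes apart from the background. The NSC to BTSC ratio of 17 to 2 peaks was 8.5, with an exact interval of 2.02 to 75.9 that holds the ratio of the whole lists. Of the 17 NSC peaks, 11 lay on chromosome 6, 4 in the window of Ccnd2 and 7 in that of Cdkn1b. That chromosome held 10.3% of all NSC TLX peaks. The windows were chosen by gene name, so this share is not a matched background for 11 of 17. All 17 overlapped NSC H3K27ac (95% interval 80.5 to 100%, against 91.6% of all NSC TLX peaks), and 16 overlapped an H3K27ac peak of BTSC as well (71.3 to 99.9%, against 88.1% of all). Both intervals hold the share of the whole list, so in this the peaks near the 10 genes were not set apart from other TLX peaks. Folds of these 17, read as the authors' enrichment over a background, ran from 3.28 to 10.7 with a median of 4.40, close to the median of 4.78 for the list. By q, 1 of the 17 was among the 1436 strongest NSC peaks, a number equal to the length of the BTSC list. That cut keeps 1436 of all 7458 NSC peaks.

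Among the D cyclins, Ccnd2 and Ccnd1 had at least 1.5-fold more H3K27ac-covered bp in NSC. With peaks of −log10 q of at least 5 alone, Ccnd3 did too, and its 1.84-fold was then above the 1.54-fold of Ccnd1. At Ccnd3 that limit leaves out BTSC peaks with −log10 q from 3.24 to 4.19, each overlapping an NSC peak. It also leaves out NSC peaks with 1.90 and 2.89. The Ccnd3 window holds 6 other genes, whose peaks enter its ratio. Ccnd2, a cyclin of cortical progenitors, lies at chr6:127125162-127152188 and had H3K27ac over 31772 bp in NSC and over 10368 bp in BTSC, 2.97-fold more in NSC after 500 bp were added to either value. All 10368 bp of BTSC also lay within NSC peaks, and 21404 bp were covered in NSC alone. In NSC, 1 domain of 25951 bp (127129715 to 127155665) spanned most of the gene and the high-coordinate end. It was wider than 99.9% of the peaks of its list. In BTSC the same stretch held 4 separate peaks of 487 to 3553 bp. The strongest of them, at 127147934 to 127150803, had a fold of 8.86, at percentile 76.7 of its list, and the NSC domain had 8.23, at percentile 72.9. The Ccnd2 difference given here is one of covered length. These 2 folds belong to stretches of unlike width, so they do not compare the cultures at the same place. With peaks of −log10 q of at least 5 alone, which leaves out 3 BTSC peaks inside the gene and 3 weak NSC peaks of the window, the ratio was 5.98.

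TLX lay at 4 places inside Ccnd2 in NSC and at none in BTSC. A pair of peaks stood near the middle of the gene (127133584 to 127134566, and 127135130 to 127135571), with folds of 4.40 and 4.02. The other pair, at 127147787 to 127148219 and 127148827 to 127150929, had folds of 3.28 and 4.21, and the last was 2103 bp wide. The other pair fell where the strongest BTSC acetylation was retained. No TLX peak of BTSC was called within 185017 bp of the gene. Relative to all covered bp on chromosome 6, the Ccnd2 difference was 2.36-fold.

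Ccnd1, the cyclin that responds most widely to growth factor signals, lies at chr7:144929931-144939831 and was acetylated over 16660 bp in NSC against 10624 bp in BTSC. The ratio of 1.54 was just past the 1.5-fold used here to call a difference. Its entire 9901 bp body lay within 1 NSC domain of 15440 bp (144928439 to 144943878), with a fold of 19.0 at percentile 96.3 of the list. In BTSC 5604 bp of the body were covered, by a peak of 1300 bp at the low-coordinate end and 1 of 8025 bp at the other end, with folds of 4.42 and 5.63. The stronger BTSC peak was at percentile 59.7, so Ccnd1 acetylation stood high in the NSC list and near the middle of the BTSC list. A neighbouring peak 162 bp from an end of LTO1 was called in both lists, with folds of 9.83 in NSC and 8.93 in BTSC.

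Both TLX peaks at Ccnd1 in NSC sat at the high-coordinate end. The summit of the peak at 144938915 to 144939713 was 280 bp inside that end, and the summit of the peak at 144941243 to 144941948 was 1580 bp beyond it. Their folds of 3.82 and 4.21 were at percentiles 16.6 and 30.2 of the NSC list, so both were among its weaker peaks. In BTSC the nearest TLX peak on the chromosome was 5093726 bp away.

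Ccnd3, a D cyclin prominent in blood cells and muscle, lies at chr17:47505051-47599689. Its covered length was 15133 bp in NSC and 10470 bp in BTSC, a 1.43-fold difference under the threshold. Each of its 8 NSC peaks overlapped 1 of 8 BTSC peaks. The annotation gives 2 starts. The upstream start had weak acetylation in both lists, with folds of 2.58 in NSC and 3.29 in BTSC. The downstream start at 47593467 lay in wider peaks with folds of 9.46 and 8.06, so within each list the downstream start carried the stronger peak. The gene's TLX peak (47545848 to 47546276, fold 5.35 in NSC) lay inside the gene, 41008 bp from the upstream end, within an H3K27ac peak of both lists. That H3K27ac peak had a fold of 4.99 in NSC and 3.27 in BTSC.

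**Figure D1:**
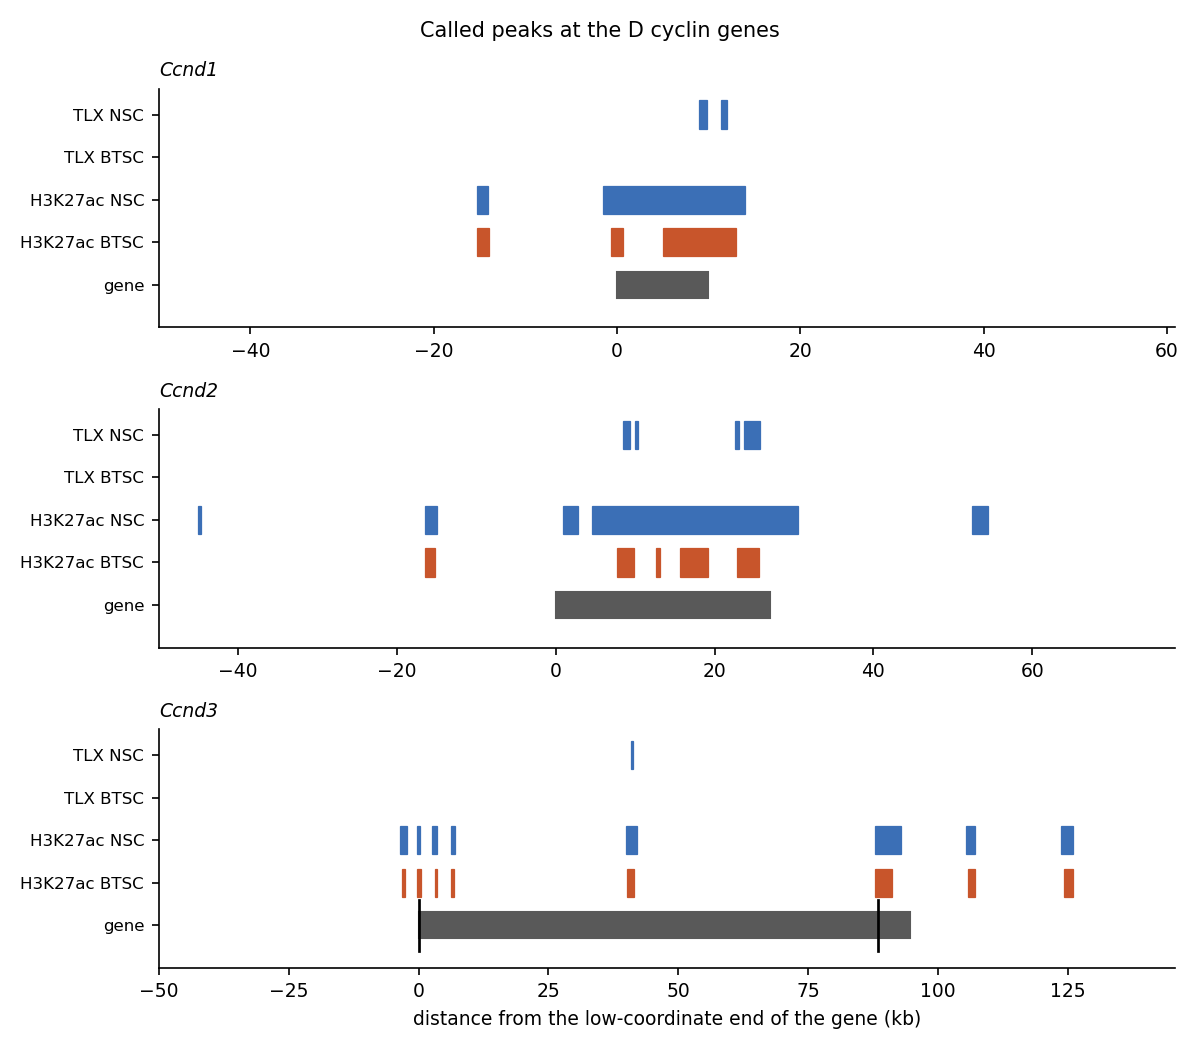
Called peaks (coloured bars, drawn to scale) of the 4 lists around Ccnd1, Ccnd2 and Ccnd3, by distance in kb from the low-coordinate end of the gene; dark bars are gene bodies and black ticks are annotated starts where a promoter sequence was at hand. The wide NSC H3K27ac domains of Ccnd1 (15440 bp) and Ccnd2 (25951 bp) stand above shorter BTSC peaks, and the BTSC TLX lane is empty in all 3 panels.

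The kinase genes leaned the other way, with somewhat more H3K27ac in BTSC and both under 1.5-fold. Cdk4, at chr10:127063535-127067288, was covered over 19252 bp in NSC and 28538 bp in BTSC (1.47-fold). At its start the NSC peak was 3027 bp wide with a fold of 24.7, at percentile 98.9 of the list. In BTSC the peak at the start was 8828 bp wide with a fold of 16.8, at percentile 94.4, and reached across the gene to Tspan31. A second NSC peak, 2359 bp wide with a fold of 9.13, lay under that same BTSC peak. The peak at the Cdk4 start was thus at percentile 94.4 or higher of either list by fold, and the NSC peak was the narrower. The window holds 9 other genes, and most of the excess in BTSC lay near Os9, at least 23393 bp from Cdk4. There a peak of 3016 bp in NSC compared with 9635 bp in BTSC. Within 10 kb of Cdk4 the BTSC excess was 1.27-fold. No TLX peak lay in the Cdk4 window in either culture.

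Cdk6, the kinase linked to progenitor expansion, is long (chr5:3341004-3531008) and was covered over 15049 bp in NSC and 21592 bp in BTSC (1.42-fold). It had 9 peaks in NSC and 10 in BTSC. At its start the folds were 7.01 and 7.93. Inside the gene 2 peaks were called in BTSC alone, at 3432690 to 3434055 with a fold of 4.59 and at 3512605 to 3513463 with a fold of 2.31. All 9 NSC peaks overlapped a BTSC peak by at least 1 bp, with 13820 bp covered in both lists, 1229 bp in NSC alone and 7772 bp in BTSC alone. An intragenic peak at 3394528 was 932 bp wide with a fold of 2.72 in NSC, and its BTSC counterpart was 2052 bp wide with a fold of 5.46.

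TLX in the Cdk6 window fell at 2 places. The peak inside the gene (3404874 to 3405587), 64228 bp from the low-coordinate end, had a fold of 6.50 in NSC and ranked 1459 by q. No BTSC peak was called there, although an H3K27ac peak lay over that place in both lists, with folds of 5.27 in NSC and 8.16 in BTSC. The other TLX peak was called in both lists, with folds of 4.40 in NSC and 4.81 in BTSC. Its summit was 313 bp from an end of Fam133b, the neighbouring gene, and 13138 bp from Cdk6, so 1 of the 2 genes with TLX in BTSC rests on a site at another gene.

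**Figure D2:**
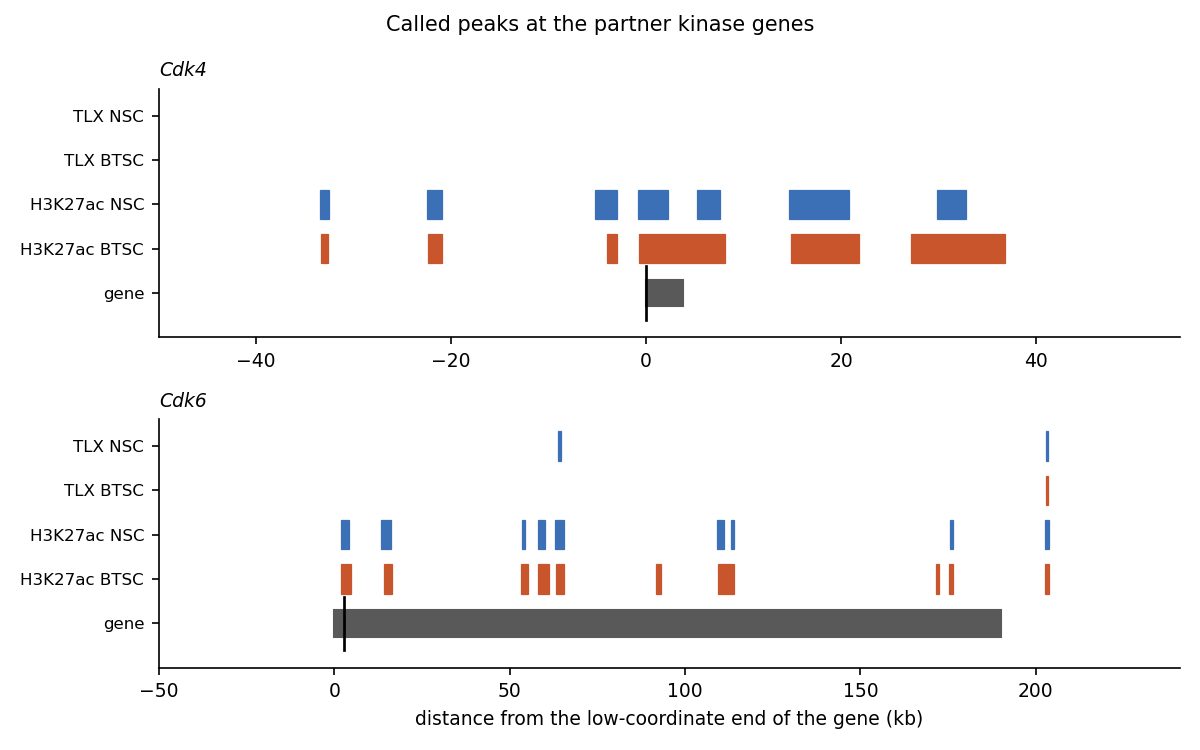
Called peaks of the 4 lists around Cdk4 and Cdk6, by distance in kb from the low-coordinate end of the gene, drawn as in the map of the cyclin genes. The Cdk4 window has more H3K27ac in BTSC (28538 covered bp against 19252), with most of the excess near Os9. Cdk6 has 2 bars in the BTSC H3K27ac lane without an NSC counterpart, and the TLX site at the right of Cdk6 is present in both TLX lanes.

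Of the CIP/KIP inhibitors, Cdkn1b carried the densest TLX and had nearly equal H3K27ac in both cultures. Cdkn1b encodes p27, which holds cells in quiescence, and lies at chr6:134920401-134925525. Its window had 7 TLX peaks in NSC, covering 8526 bp or 8.11% of the window, and 1 in BTSC. The NSC peaks ran from 134887772 to 134928698. The strongest (134926114 to 134927733) had a fold of 10.7 and ranked 231 of 7458 by q. Its summit lay 1638 bp beyond the end of the gene. The BTSC peak (134926788 to 134927395, fold 5.04) overlapped it, with a summit 1538 bp beyond the end. The site shared by both cultures was therefore at the 3′ side of Cdkn1b, not at its start.

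A TLX peak of 1453 bp (134919957 to 134921409, fold 4.59) covered the Cdkn1b start in NSC, including all 300 bp of the promoter shown above. No BTSC peak was called within 6387 bp of the start. Another, 2378 bp wide with a fold of 5.55, lay further inside the gene in NSC. Of the remaining peaks, 1 lay 384 bp from an end of Gpr19 and 1 was nearest to Crebl2, 7448 bp away. Cdkn1b itself was thus the nearest gene to 5 of its 7 NSC peaks.

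H3K27ac covered 27570 bp of the Cdkn1b window in NSC and 27253 bp in BTSC (log2 of -0.016). The peak over the gene was 11353 bp wide with a fold of 23.1 in NSC and 16970 bp wide with a fold of 15.8 in BTSC. The upstream region toward Crebl2 had folds of 18.4 and 19.7. The Gpr19 peak had 26.7 in NSC, at percentile 99.3, and 10.4 in BTSC, at percentile 82.1. Cdkn1b itself thus had a peak near the top of either list. Relative to all covered bp on chromosome 6, the Cdkn1b window had 1.25-fold more in BTSC.

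Cdkn1a, encoding p21, lies at chr17:29090979-29100722. H3K27ac covered 21263 bp of its window in NSC and 18597 bp in BTSC. Both annotated starts lay in 1 peak in either list, of 6010 bp with a fold of 7.42 in NSC and 4807 bp with a fold of 8.88 in BTSC. Upstream, NSC had separate peaks of 2163 and 5052 bp with folds of 4.77 and 8.05, where BTSC had 1 peak of 8047 bp (29072005 to 29080051) with a fold of 10.8. The gene was acetylated at its start in both cultures, with the strongest BTSC region upstream of it. Its window held 1 NSC TLX peak (29057936 to 29058586, fold 3.78), 32393 bp before the gene, and none in BTSC. Srsf3 was nearer to that peak, at 14980 bp, so no TLX peak had Cdkn1a as its nearest gene.

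Cdkn1c, the imprinted gene of p57, lies at chr7:143458339-143461059 and had the least H3K27ac of the 10 genes, over 1886 bp in NSC and 1219 bp in BTSC. At the gene itself 1 peak was called, in NSC (143460766 to 143461541). Its fold of 2.25 and −log10 q of 1.06 were close to the lowest of that list, whose minimum −log10 q is 1.02. The remaining peak, 11066 bp from the nearest end of Kcnq1, was present in both, with folds of 3.71 and 2.95. The direction of the Cdkn1c difference depends on the window, with 2.55-fold more in NSC within 10 kb and 1.55-fold more in BTSC within 100 kb. With −log10 q of at least 5, the peak at the gene and the BTSC peak were both left out, and the remaining NSC peak gave 3.22-fold more in NSC. No TLX peak lay in the window.

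The INK4 genes Cdkn2a and Cdkn2b are neighbours whose windows share peaks, and both were acetylated to like extents in the cultures. Cdkn2a (chr4:89274473-89294619) was covered over 9562 bp in NSC and 9465 bp in BTSC, and Cdkn2b (chr4:89306289-89311032) over 10033 and 10070 bp. Cdkn2a and Cdkn2b shared 73.8% and 72.3% of the bp covered in either list, the highest of the 10 genes. No TLX peak lay nearer than 158599 bp to Cdkn2b in NSC or 158713 bp in BTSC. This locus, often lost in tumours, thus had called H3K27ac peaks in BTSC.

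H3K27ac divided the 2 starts of Cdkn2a. The upstream start at 89294619, known as that of p19Arf, was covered in both lists, by a peak of 3503 bp with a fold of 16.1 in NSC and of 3504 bp with a fold of 10.0 in BTSC. The downstream start at 89282192, known as that of p16, had no H3K27ac peak nearer than 3991 bp in NSC or 3753 bp in BTSC. Their promoters shown above differ in base content, with 77.0% GC and 45 CpG at the upstream start and 60.3% GC and 12 CpG at the downstream start, against medians of 52.7% and 7 over all promoters. A peak between the starts had a fold of 6.0 in NSC (89286183 to 89290505) and 11.9 in BTSC (89285945 to 89289064). Within NSC the upstream start was the stronger of these regions, and within BTSC the region between the starts was. The Cdkn2b start had folds of 7.32 and 6.07.

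**Figure D3:**
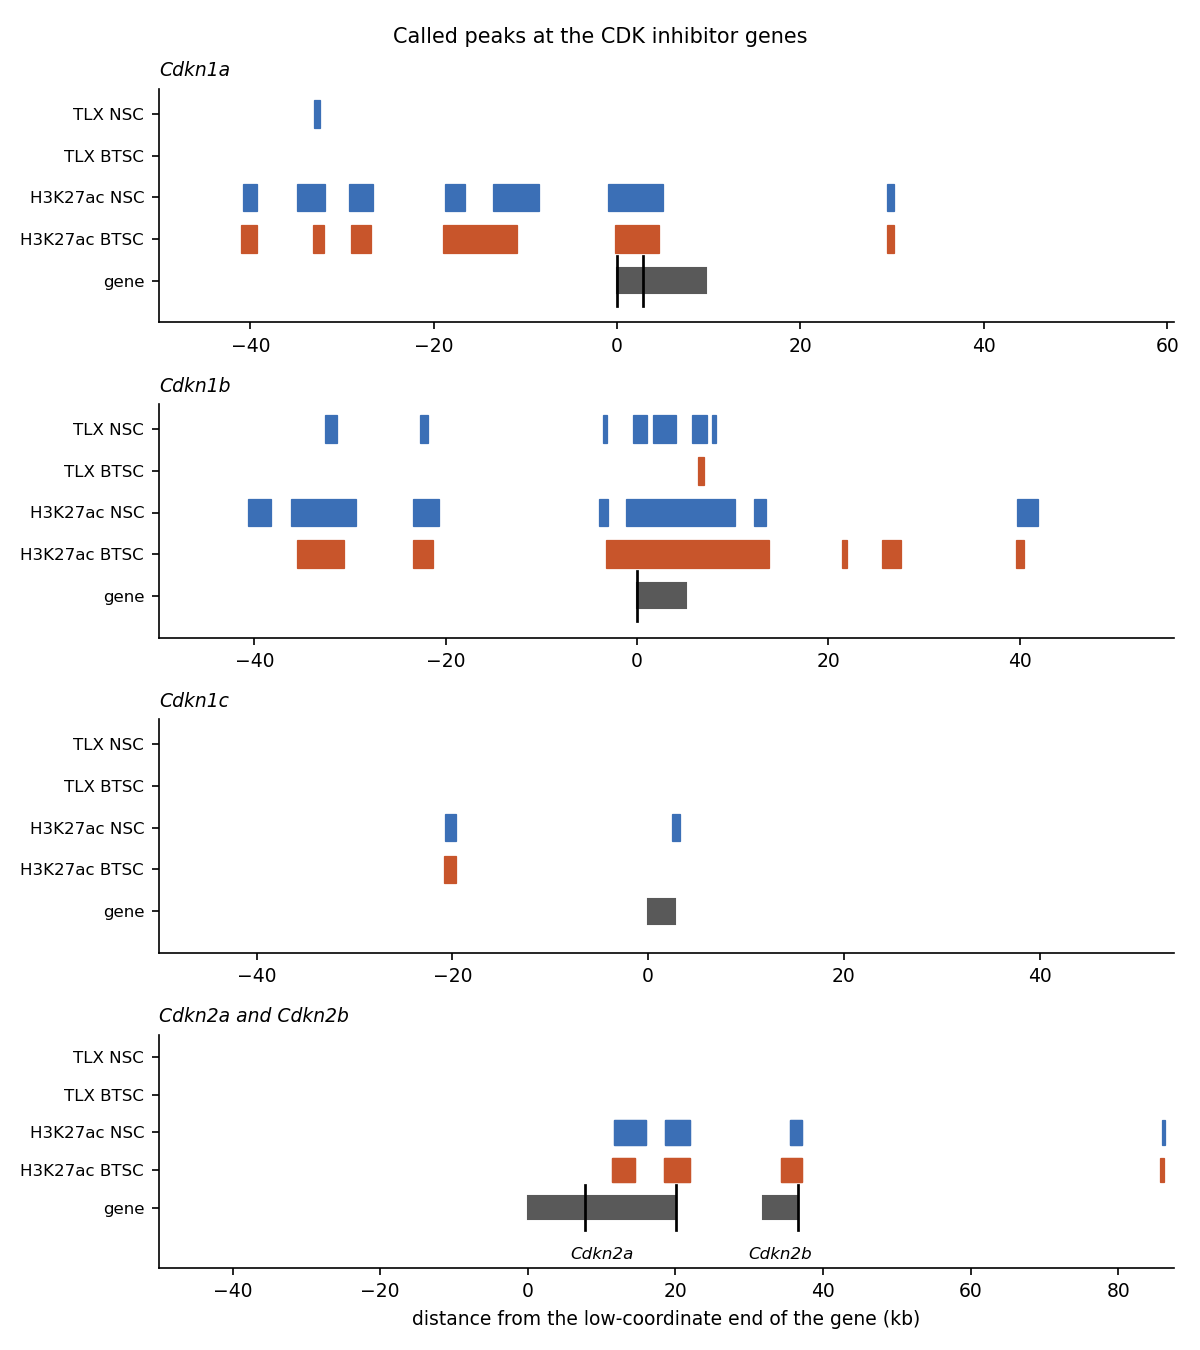
Called peaks of the 4 lists around Cdkn1a, Cdkn1b, Cdkn1c and the neighbours Cdkn2a and Cdkn2b, by distance in kb from the low-coordinate end of the gene (of Cdkn2a in the last panel), drawn as in the map of the cyclin genes. Cdkn1b has 7 TLX bars in NSC and 1 in BTSC, Cdkn1c has few bars, and the left tick of Cdkn2a, the downstream start, has no H3K27ac bar over it.

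By promoter acetylation, 8 of the 10 genes had an H3K27ac peak within 1 kb of a start in both lists, against 50.3% of all genes. For Ccnd1, Ccnd2 and Cdkn1c, whose starts were not at hand, either end of the gene was used. The other 2 genes, Ccnd2 and Cdkn1c, had one in the NSC list alone, against 2.41% of all genes, and none of the 10 had one in the BTSC list alone, against 1.90%. The Ccnd2 case rests on a short distance, since the strongest BTSC peak ended inside the gene near the same end. With 2.5 kb in place of 1 kb Ccnd2 was in both. The Cdkn1c case rests on 1 weak peak with −log10 q of 1.06 and was lost at −log10 q of at least 5. Among all genes, starts were used for 17491 and either end for 4392, so the 2.41% mixes both rules.

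By covered length, 2 of 10 genes, Ccnd1 and Ccnd2, had at least 1.5 times as many H3K27ac-covered bp in NSC, against 12% of the 17362 genes with any. None had that many more in BTSC, against 17.8%, a share that includes the 49.2% on chromosome 1, where no member lies. The members' median log2 of BTSC over NSC was -0.10, beside 0.099 over all genes. In order from more NSC to more BTSC, the log2 values were -1.57 for Ccnd2, -0.63 for Ccnd1, -0.51 for Ccnd3, -0.47 for Cdkn1c and -0.19 for Cdkn1a. They went on with -0.016 for Cdkn1b, -0.014 for Cdkn2a, 0.0051 for Cdkn2b, 0.51 for Cdk6 and 0.56 for Cdk4. In this order the D cyclins were at the NSC end and the kinases at the BTSC end. With 1 library per culture, neighbours in it cannot be told apart. The split by class also depended on the window. Within 10 kb, Cdkn1c (-1.35) and Cdkn1a (-0.60) lay further toward NSC than Ccnd3 (-0.55). Cdkn2b (0.53) lay further toward BTSC there than Cdk4 (0.34). Within 100 kb, Cdkn1c (0.64) lay past both kinases on the BTSC side. Covered share of the window, by contrast, was above the median of all genes in 9 of the 10 in either list. The exception was Cdkn1c, with 1.84% in NSC and 1.19% in BTSC against medians of 3.11% and 3.30%.

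**Figure D4:**
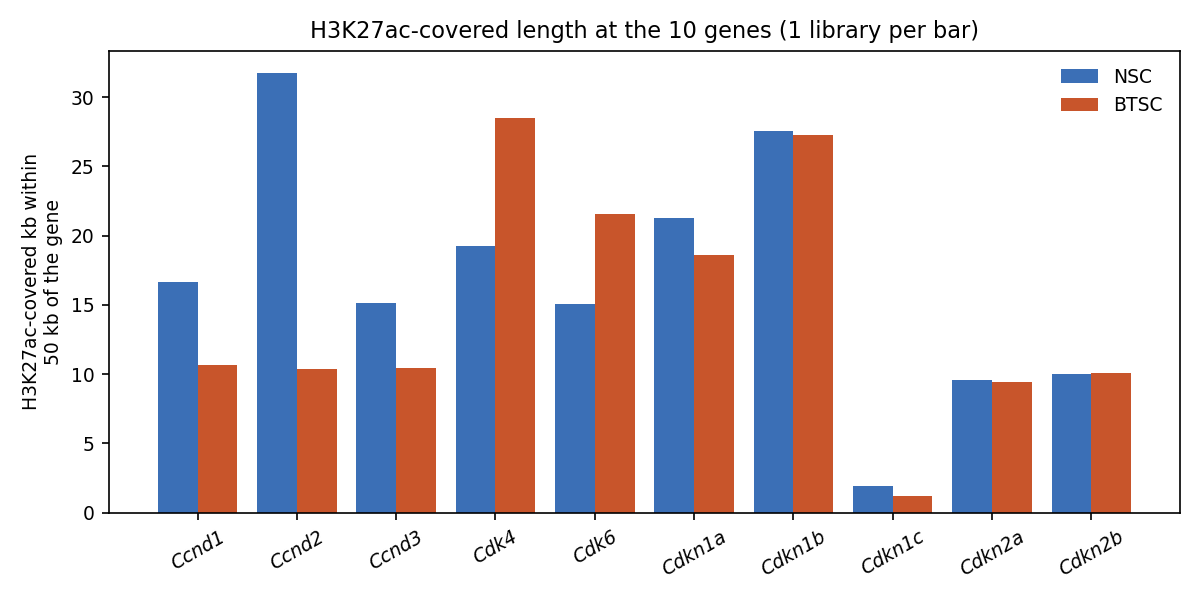
H3K27ac-covered length (kb) within 50 kb of each of the 10 genes in NSC and BTSC, 1 library per bar and therefore without error bars. Ccnd2 has 31772 bp in NSC and 10368 bp in BTSC, Cdkn1b, Cdkn2a and Cdkn2b have nearly equal bars, and Cdk4 and Cdk6 are higher in BTSC.

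Set against their surroundings, the windows differed in how far they followed the chromosome. In the flanks of Ccnd1, from 50 kb to 1 Mb on either side, covered bp were 70771 in NSC and 45990 in BTSC, 1.54-fold more in NSC, as in the window of the gene. The Ccnd1 difference was thus shared with its surroundings. Ccnd2 flanks had 82397 and 72444 bp, 0.879 times as many in BTSC against 0.337 times at the gene, so the difference was larger at Ccnd2 than around it. Cdkn1b showed the reverse, with 90593 and 53036 bp in the flanks, a ratio of 1.71, and 1.01 at the gene. Flanks of Cdk6 had 1.35-fold and those of Cdk4 0.971-fold as many covered bp in BTSC. The part of chromosome-wide differences in the values of Ccnd2 and Cdkn1b was not tested.

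**Figure D5:**
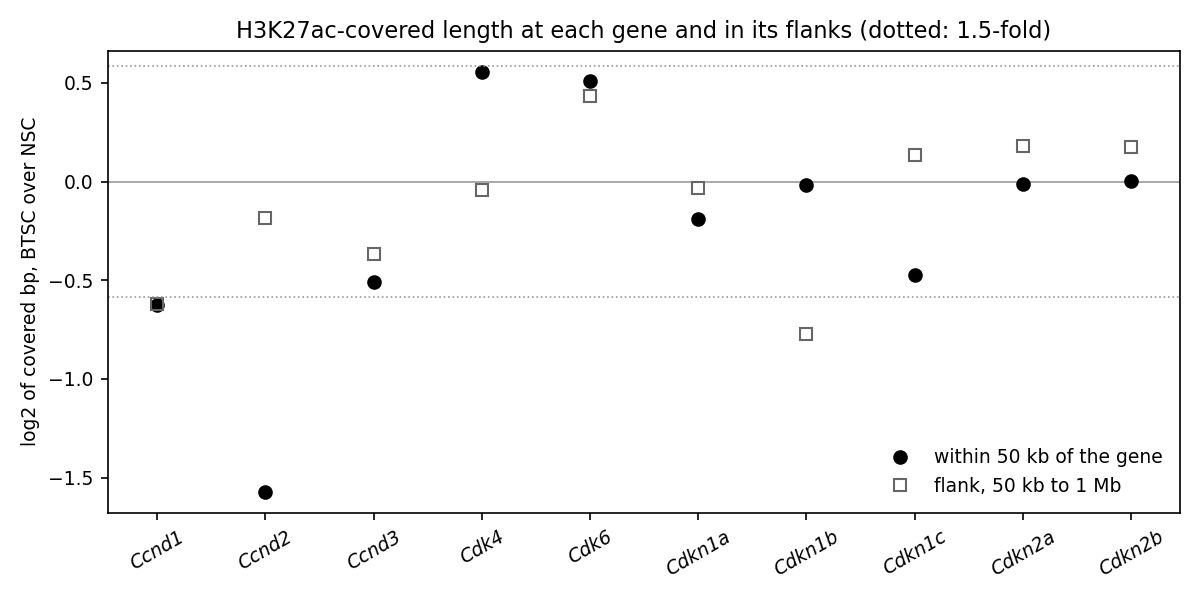
Log2 of H3K27ac-covered bp in BTSC over NSC for each gene's window (filled circles, with 500 bp added to either value) and for its flanks from 50 kb to 1 Mb (open squares); dotted lines mark 1.5-fold. Window and flank coincide at Ccnd1, the window lies far under the flank at Ccnd2 (0.337 against 0.879 times as many bp in BTSC), and it lies above the flank at Cdkn1b.

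Other genes of the G1/S pathway, 32 from a list that leaves out the members, were acetylated throughout and had TLX nearby mainly in NSC. H3K27ac lay at a start or end of 32 of 32 in both lists, against 50.3% of all genes. TLX lay in the window of 18 in NSC and 3 in BTSC, against the 42.1% and 10.2% of all genes given above. All genes too had TLX nearby more often in NSC, and over 32 genes these counts are not read as a trait of the partners. The 3 with TLX in both lists were the E2F factors E2f1 and E2f2 and Ccng2, a cyclin G gene. The 15 with TLX in NSC alone were Rb1 and Rbl1 of the retinoblastoma family, E2f3, E2f6, E2f8 and Tfdp2 of the E2F and DP factors, the INK4 genes Cdkn2c and Cdkn2d, Ccne2, Ccna2, Cdc25a, Cdk7, Mnat1, Fbxw7 and Cables1. The 2 remaining INK4 genes thus had TLX nearby in NSC where Cdkn2a and Cdkn2b had none.

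Covered bp of these partners differed by 1.5-fold or more in 3 of 32 toward NSC and in 3 toward BTSC, against 12% and 17.8% of all genes, so neither count was above the background. Ccne1, encoding the cyclin that follows the D cyclins in G1, had 5194 bp in NSC and 1490 bp in BTSC. Ccnh, of the CDK-activating kinase, had 2514 and 1055 bp, and the repressor gene E2f7 had 2074 and 1131 bp. In the other direction were E2f1 (4881 and 9023 bp), Mnat1 (5868 and 11600 bp) and Tfdp2 (6423 and 10063 bp). The median log2 of the list was 0.10, that of all genes 0.099.

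Genes with the most similar pattern were looked for by the Euclidean distance over 4 values, the log2 of 0.1 plus the percent of the window covered by each list. Nearest to Ccnd2 were Gm19774, Hmga2 and Spo11 at distances of 0.351, 0.488 and 0.648. The Hmga2 window had 18.7% H3K27ac cover in NSC and 7.67% in BTSC, where that of Ccnd2 had 25.0% and 8.16%. Nearest to Cdkn1b was Sox2 at 0.631, with TLX cover of 7.15% in NSC and 0.581% in BTSC beside 8.11% and 0.578% for Cdkn1b, and then Lbx2 and Ccdc142, both on chromosome 6. Sstr5, Elfn2 and Atg101 were nearest to Ccnd1 (0.200 to 0.214), Spats2l, Frem1 and Sybu to Cdk6 (0.254 to 0.336), and Calm3, Ptgir and Gpr17 to Cdkn1a (0.0411 to 0.0814). The 4 values come from 1 library each, and windows of neighbouring genes share peaks.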

How the data were processed

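Peaks of 4 chromatin immunoprecipitation libraries were used, 1 per group (TLX and H3K27ac, each in NSC and BTSC). Per the labels' protocols, cells were fixed for 10 min in 1% formaldehyde, fragments of about 200 bp were made and read from both ends over 50 bp. The submitters' processing notes name Bowtie, ChIPseeker, bcl2fastq 2.17.1.14 and build mm10, with no peak caller. The authors deposited 1 peak list per library, narrow for TLX and broad for H3K27ac. The columns, deposited without a header, were read as the peak formats define them: the fold enrichment of the peak (a linear ratio), its significance as −log10 of p and of q, and a score that equals the latter times 10, without decimals, in all but a few lines. Narrow lists, as deposited, add the summit's offset in bp.

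Genes came from RefSeq GRCm38.p6. Starts from the RefSeq promoter table were used for 17491 of 21883 genes and either gene end for 4392. Peaks counted when they overlapped a window by 1 bp or more, and covered bp are the union of peaks clipped to it. Fold, q and percentiles describe peaks within 1 list. Ratios of covered bp had 500 bp added, and 1.5-fold was the limit for a difference. Shares have exact Clopper-Pearson 95% intervals and the peak ratio an exact conditional binomial one, both for counting error only. Nothing was tested between groups, and 1 marker list is not reported here. Named genes were the members, partners whose class differs, nearest genes of TLX peaks and the 3 genes most alike. Members and lists were chosen with earlier results of these data known. Python 3.11.15, numpy 2.4.6, pandas 2.3.3 and scipy 1.17.1 were used; the window functions were checked on 200 simulated windows. Alternatives were other windows, a stricter q, equal numbers of peaks, other overlap rules, joined peaks, another added length and scaling by chromosome; leaving out members on chromosome 6 was added after the data had been seen.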

Additional observations from a re-analysis of the deposited data

How the results depend on the processing

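No paired analysis was possible because each group is 1 library and no test was made. With the NSC TLX list cut to the length of the BTSC list, 1 gene, Cdkn1b, with 1 peak was left in NSC against 2 genes with 2 peaks in BTSC. Within 10 kb, or counting only peaks with the member as nearest gene, BTSC had 1 gene (1 peak within 10 kb). Without the members on chromosome 6, chosen after seeing the data, NSC had 6 TLX peaks and BTSC 1 gene with 1 peak; the NSC-only promoter class and the genes with more covered bp in NSC were then 1 each. A reciprocal overlap of 50% left 1 shared TLX peak. The NSC-only promoter class was 1 with a window of 2.5 kb, where Ccnd2 joined both, and 1 with −log10 q of at least 5, which removed Cdkn1c. Genes with more covered bp in NSC were 4 within 10 kb (with Cdkn1a at 1.51-fold and Cdkn1c) and 4 at the stricter q (with Ccnd3 at 1.84-fold and Cdkn1c). They were 3 with 100 bp added (with Cdkn1c at 1.51-fold) and 3 with scaling by chromosome (with Cdkn1c at 1.54-fold). Genes with more in BTSC were 1 within 100 kb, Cdkn1c at 1.55-fold, and 1 at the stricter q, Cdk6 at 1.62-fold. Cdkn1c thus lay on either side with the window, and its call toward NSC also depended on the q limit, the added length and the scaling. Causes were not tested. Ccnd1 and Ccnd2 kept at least 1.5-fold more in NSC in each of these covered-length alternatives and in all with another added length or chromosome scaling. Joining within 1 kb changed no value, since the smallest gap between H3K27ac peaks was 1629 bp. No read depth was at hand, so weak peaks are least certain.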
